A study of Homo sapiens with 4 samples.

Results

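The genes described here are 8 that encode enzymes of pyrimidine nucleotide synthesis: CAD, DHODH and UMPS of the de novo route, the CTP synthases CTPS1 and CTPS2, the uridine-cytidine kinase UCK2, the UMP/CMP kinase CMPK1 and the nucleoside diphosphate kinase NME1. They were chosen by symbol, and every probe set that the platform annotation assigns to them was taken (18 of 54613 probe sets other than controls). A probe set is a group of short oligonucleotides that together read 1 transcript. Dim probe sets were left out by their mean signal over the arrays, the lowest mean kept being 34, and 12 of the 18 remained. CAD, DHODH, UMPS, CTPS1, CTPS2, CMPK1 and NME1 each had at least 1 kept probe set with no other symbol, so 7 of the 8 genes stand among the 10505 genes measured in this way. Both probe sets of UCK2 are also listed under MIR3658, a microRNA gene that lies within the UCK2 locus, and their values are given under both names.

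RCM-1 is a human colorectal cancer cell line from a well-differentiated tumour of the rectum, and its cultures form domes, blister-like lifts of the cell sheet. Nearly confluent cells were exposed to 1 mM methylthioacetic acid (MTA) and then returned to vehicle medium (acetonitrile). Exposures of 6, 12 and 18 h were followed by 18, 12 and 6 h without MTA, so that exposure and time after removal change together. The control was the array labelled 0 h, and the sources used here do not state how long its cells were kept. There was 1 array for each time, hence no test, SD or p-value is given, and the 0 h array is the denominator of each log2 ratio. Precision is limited throughout by this small number of arrays.

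Epithelial markers were bright and those of other cell types were dim. The 11 markers of colorectal epithelium were all kept, with summed signals between 42350 at 18 h and 60340 at 0 h. CDX2, an intestinal transcription factor, was the dimmest of them, with 55.9 at 0 h and 70.3 at 18 h. None of the 4 fibroblast markers was kept, and their sum ran from 29.0 to 50.5. PTPRC, CD3E and CD14, the immune markers with a probe set of their own (CD68 had none), were not kept either, while PECAM1 was the only one kept of 3 endothelial markers, with a signal of 41.1 at 0 h. Array-wide values moved too: across all genes the median log2 ratios of the 6, 12 and 18 h arrays were 0.11, −0.28 and −0.47. Those of poly-A control transcripts, which are spiked into the RNA, averaged 0.20, 0.03 and −0.25. Another set, the hybridization controls, averaged 0.02, −0.27 and −0.05. RNA integrity bears on the 3′ over 5′ signal ratio, which from 0 to 18 h took values of 5.76, 4.76, 5.86 and 6.45 for ACTB, and of 1.64, 1.44, 1.53 and 1.63 for GAPDH. The ratios of the pyrimidine genes under other scalings of the arrays are given below. The source of these shifts was not tested, and fewer cells and less RNA per cell cannot be told apart on such arrays.

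Pyrimidine nucleotides are the U, C and T building blocks of RNA and DNA. Cells build the ring de novo from glutamine, bicarbonate and aspartate, attach ribose phosphate to give UMP, and phosphorylate it to UDP and UTP, from which CTP synthase makes CTP. Alternatively they recover uridine and cytidine through uridine-cytidine kinases. UTP also carries sugars for glycosylation, and CTP carries the head groups and lipid precursors of membrane phospholipids. Dividing intestinal tumour cells draw on these pools for ribosomal RNA and DNA.

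After 18 h of MTA treatment, 6 of the 7 genes had a log2 ratio below −1, that is, over 2-fold less signal than at 0 h. Among all 10505 genes, 15.8% were below −1. The count depended on the scaling of the arrays and was 2 after median centring and 1 with quantile normalization, where 3.74% and 3.84% of all genes were below −1. CTPS1 was the lowest, at 21.3% of its signal at 0 h, and CTPS2 was the exception, at 74.8%. CTPS1 alone was below −1.5, the threshold of the published analysis, which 3.19% of all genes passed. The median of the 7 genes was −1.19, a shift of −0.73 from the median of all genes.

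The sequences shown are those that lie directly before the annotated start of CTPS1, the gene with the lowest ratio, and of CAD, which opens the pathway. They are from RefSeq (GRCh38.p14, plus strand), cover 100 bases each, and lie at chr1:40979596-40979695 and chr2:27217269-27217368. Capitals mark GC boxes (GGGCGG or, on the other strand, CCGCCC), and the first 2 in CTPS1 overlap by 1 base.
CTPS1: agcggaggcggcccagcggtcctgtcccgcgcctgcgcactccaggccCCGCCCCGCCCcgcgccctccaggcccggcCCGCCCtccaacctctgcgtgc
CAD: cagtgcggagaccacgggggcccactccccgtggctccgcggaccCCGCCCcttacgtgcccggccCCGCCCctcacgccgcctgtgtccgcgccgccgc
A GC box is no mark of these genes. It was found in 5 of the 10 promoter windows that RefSeq start sites give for the 8 genes (250 bases before to 50 after a start, with 2 windows each for CTPS1 and CTPS2), in 44.9% of all 35097 windows and in 67.1% of the windows of genes with a kept probe set. The windows of UMPS, CMPK1 and NME1 held none.

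A second motif was searched, the E-box CACGTG, which reads the same on both strands and is bound by MYC and related factors. It was in 2 of the 10 windows, those of DHODH and NME1, and in 7.25% of all windows (9.73% for genes with a kept probe set). Bases outside these windows were not searched, so a gene without a match may hold one there. The match of DHODH begins 159 bases before the start and is shown in capitals within chr16:72008568-72008607 on the plus strand.
DHODH: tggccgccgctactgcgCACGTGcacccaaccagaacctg
No window of the 8 genes held an E2F motif (TTTCCCGC, TTTGGCGC or TTTCGCGC, on either strand). Of all windows 2.74% did (4.23% for genes with a kept probe set). With 10 windows and shares this low, the lack of a match does not set these genes apart. A match is a run of letters and does not show binding.

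**Figure D1:**
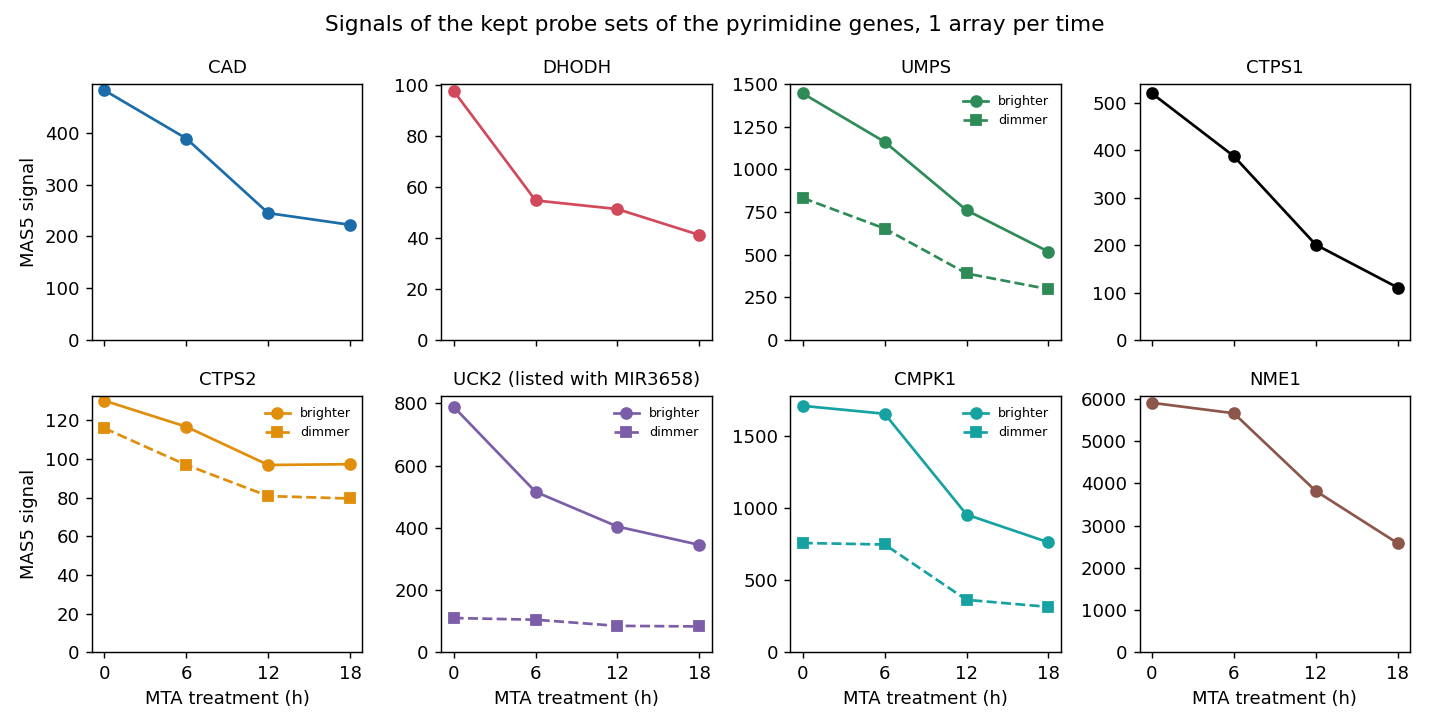
MAS5 signal (linear scale from 0) against hours of MTA treatment for each gene, with 1 point per array and no error bars, since there is 1 array per time; where a gene has 2 kept probe sets the dimmer one is dashed. The signal of CTPS1 descends over all 4 arrays from 519.4 to 110.6, while both probe sets of CTPS2 level off after 12 h.

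CAD is a single large protein that carries out the opening steps of the de novo route, carbamoyl phosphate synthesis, aspartate transcarbamylation and ring closure. Its kept probe set (202715_at) had signals of 481.6, 388.7, 244.9 and 222.3 at 0, 6, 12 and 18 h. Each MTA array was lower than the array of the next shorter treatment, and the step from 6 to 12 h was the largest, with a log2 difference of −0.67 against −0.31 before it and −0.14 after it. The log2 ratios to 0 h were −0.31, −0.98 and −1.12. At 18 h there were 1205 genes with a lower ratio.

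DHODH is the enzyme of the inner mitochondrial membrane that oxidises dihydroorotate to orotate. Its kept probe set (213632_at) was the dimmest of those described, with signals of 97.8, 54.8, 51.4 and 41.3 at 0, 6, 12 and 18 h. Alone of the 7 genes, it was already at 56% of the 0 h signal on the 6 h array and differed little between 6 and 12 h. The brighter probe set of UCK2, which is outside the 7, was at 65.4% on the 6 h array. The log2 ratio at 6 h was −0.84, the lowest of the 7 genes and the only one below −0.5, as 5.41% of all genes were. At 12 and 18 h it was −0.93 and −1.25. The other 2 probe sets of DHODH were too dim to be kept, and had −1.63 and −1.79 at 18 h.

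UMPS joins orotate to ribose phosphate and removes a carboxyl group to give UMP. Its brightest probe set (215165_x_at) had signals of 1445, 1161, 760.7 and 517.8 at 0, 6, 12 and 18 h. The suffix x in its name means that some of its oligonucleotides may also bind other transcripts. A second kept probe set (202706_s_at) had signals of 832.6, 653.4, 390.2 and 298.4. On both, each array was lower than the one before it, and both had a log2 ratio of −1.48 at 18 h, just short of −1.5. At 6 h they had −0.32 and −0.35, and at 12 h −0.93 and −1.09. Another 2 probe sets of UMPS, with mean signals of 26.9 and 28.9, were not kept, and had −0.54 and 0.24 at 18 h.

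CTPS1 and CTPS2 are paralogous enzymes that convert UTP into CTP with glutamine as the nitrogen donor. CTPS1 is known as the isoform that proliferating lymphocytes need. Its only probe set (202613_at) had signals of 519.4, 387.1, 200.9 and 110.6 at 0, 6, 12 and 18 h. The log2 ratios were −0.42, −1.37 and −2.23, so that the signal was 4.7-fold lower at 18 h than at 0 h. At 12 h CTPS1 was the only gene of the 7 below −1, where 6.29% of all genes were. At 18 h 28 of the 10505 genes had a lower ratio. With a single probe set, no second reading of this transcript was at hand.

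CTPS2 showed a much smaller difference. Its brighter probe set (222819_at) had signals of 130.2, 116.7, 96.9 and 97.3 at 0, 6, 12 and 18 h, and the dimmer one (219080_s_at) 115.9, 96.9, 80.8 and 79.6. On both, the 12 and 18 h arrays were nearly equal and below the 0 h array. At 18 h the log2 ratios were −0.42 and −0.54, on either side of the median of all genes, −0.47. The sign of CTPS2 turned under other scalings of the arrays, with 0.03 after median centring and 0.10 after division by the trimmed mean. The ratio of CTPS1 was lower than that of CTPS2 by log2 differences of −0.27, −0.94 and −1.81 at 6, 12 and 18 h. Dividing a whole array by 1 number cannot alter these differences. For scale, in the 4676 genes with a pair of kept probe sets, the SD of the difference in log2 ratio within a pair (18 h, brightest pair) was 0.479, which leaves out the variation between cultures.

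UCK2 phosphorylates uridine and cytidine and so starts the salvage route. The brighter of its probe sets shared with MIR3658 (209825_s_at) had signals of 789.2, 515.8, 404.1 and 345.2 at 0, 6, 12 and 18 h, and the dimmer one (225722_at) 110, 104.5, 84.8 and 82.9. Both were lower on each later array, but by different amounts. Their log2 ratios were −0.61 and −0.07 at 6 h, and −1.19 and −0.41 at 18 h. The latter lay above the median of all genes, so that the pair gives no single value for this transcript.

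CMPK1 phosphorylates UMP and CMP to the diphosphates. Its brighter kept probe set (217870_s_at) had signals of 1709, 1654, 954.9 and 762 at 0, 6, 12 and 18 h, and the second (222448_s_at) 757.6, 747.3, 363.4 and 314.6. The 6 h array was close to the 0 h array on both, at 96.8% and 98.6%. Both then had their largest step between 6 and 12 h, with log2 differences of −0.79 and −1.04. At 18 h the log2 ratios were −1.17 and −1.27.

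NME1 makes nucleoside triphosphates from diphosphates and was first described as a metastasis suppressor. Its probe set (201577_at) had signals of 5912, 5664, 3822 and 2584 at 0, 6, 12 and 18 h. As for CMPK1, the 6 h array was close to the control, at 95.8%. The steps from 6 to 12 h and from 12 to 18 h were alike, with log2 differences of −0.57 and −0.57. The log2 ratio at 18 h was −1.19. NME1 is similar in sequence to its neighbour NME2, and how far the probes tell them apart was not tested.

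**Figure D2:**
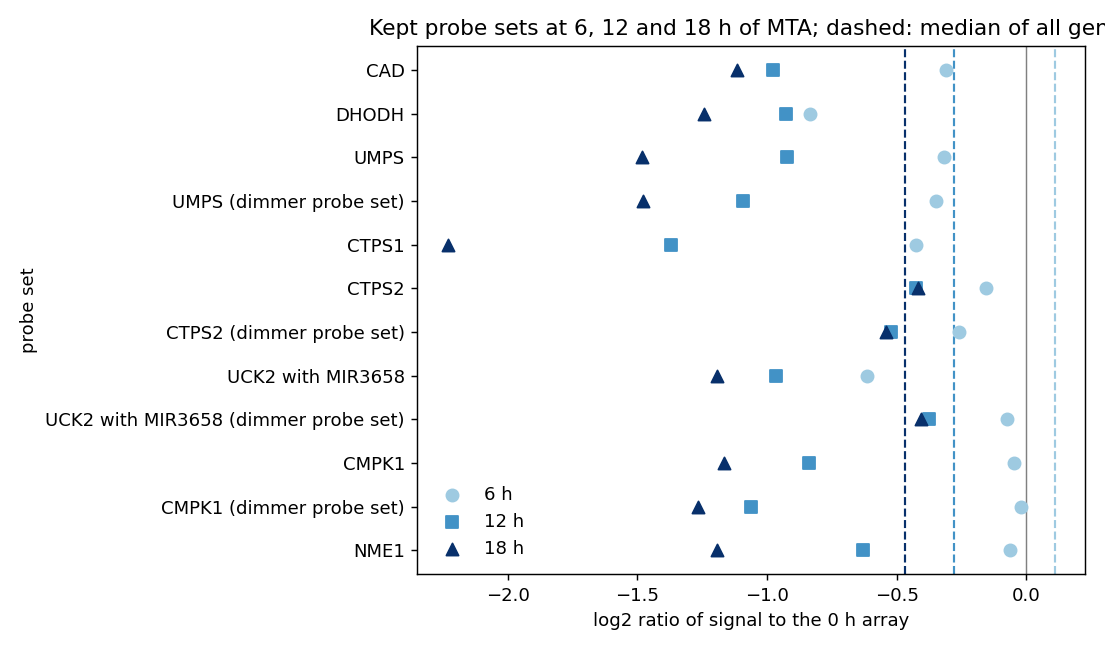
log2 ratio of the signal to the 0 h array (horizontal axis) for the 12 kept probe sets, with circles for 6 h, squares for 12 h and triangles for 18 h of MTA; dashed lines in the same colours mark the medians of all genes (0.11, −0.28 and −0.47). At 6 h every circle lies left of the 6 h line, and at 18 h the triangles of CTPS2 and of the dimmer UCK2 probe set lie near the 18 h line.

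The 7 genes differed in the step at which most of the difference lay. At 6 h all 7 had ratios below the median of all genes, with a median of −0.31 and a range from −0.84 for DHODH to −0.05 for CMPK1. At 12 h the range was from −1.37 to −0.43, with a median of −0.93. From 6 to 12 h the median step of the 7 genes was −0.61 and that of all genes −0.39, and from 12 to 18 h these steps were −0.33 and −0.19. DHODH and CTPS2 had the smallest steps from 6 to 12 h (−0.09 and −0.27), and CAD and CTPS2 those from 12 to 18 h (−0.14 and 0.01). The 3 ratios of a gene share the 0 h array and are not independent readings.

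**Figure D3:**
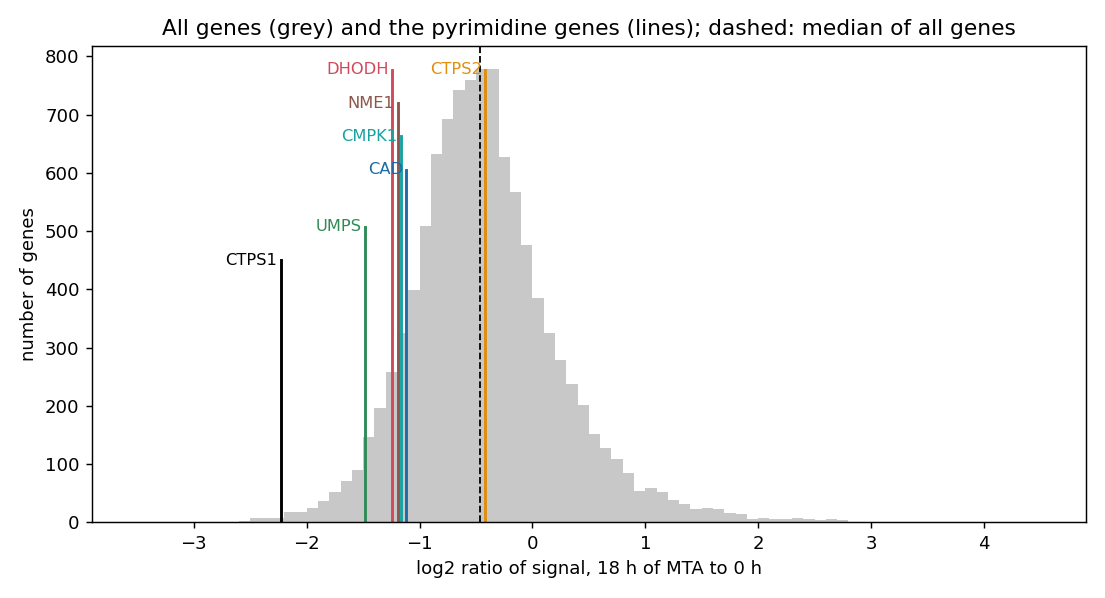
Number of genes (vertical axis, grey histogram in bins of log2 0.1) against the log2 ratio of the signal at 18 h of MTA to 0 h, with a coloured line at the ratio of each of the 7 genes and with −0.47, the all-gene median; the heights of the coloured lines carry no value. CTPS1 at −2.23 lies in the left tail, 5 genes lie between −1.48 and −1.12, and CTPS2 at −0.42 lies at the centre.

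The size of the ratios depended on the scaling of the arrays. Dividing a whole array by 1 number cannot change the order of the genes, so only quantile normalization could alter it. After median centring, the ratios at 18 h were −1.78 for CTPS1, −1.03 for UMPS, −0.80 for DHODH, −0.74 for NME1, −0.72 for CMPK1 and −0.67 for CAD, and 2 of the 7 genes were below −1, where 3.74% of all genes were. Relative to the poly-A controls 2 were below −1 as well, beside 7.47% of all genes. With quantile normalization or division by the trimmed mean CTPS1 alone was, beside 3.84% and 3.08%. Relative to the hybridization controls 6 were, beside 13.8%. Quantile normalization moved DHODH (−0.97) below UMPS (−0.88). CTPS1 was below −1.5 under each of the 5 other scalings, at −1.71 to −2.18.

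**Figure D4:**
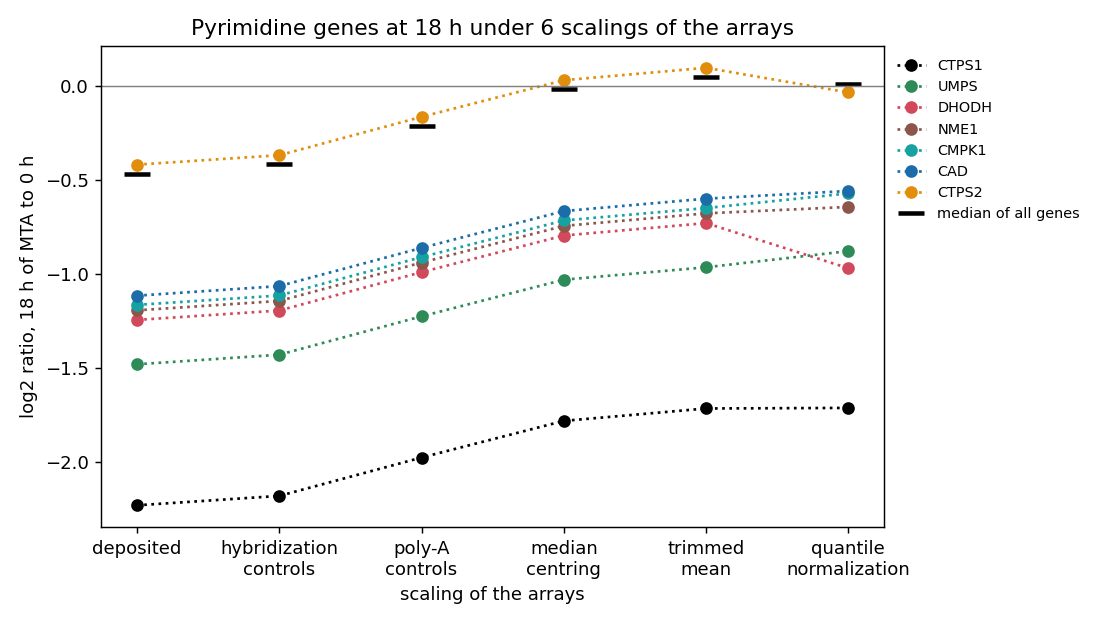
log2 ratio at 18 h of MTA to 0 h (vertical axis) of the 7 genes under the deposited scaling and 5 other scalings of the arrays (horizontal axis), with black bars for the median of all genes; dotted lines join the values of a gene and stand for no trend. CTPS1 is lowest under all 6 scalings, an order that only quantile normalization could have changed. CTPS2 stays near the median of all genes and crosses 0.

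Genes of nucleoside transport had ratios on both sides of the median of all genes. Of the 5 measured of 8, 3 were below −1 at 18 h, beside 15.8% of all genes, and none was above 1. The median of the list was −1.48, the lowest of the 6 lists, but this place depended on the processing. It was −1.14 with the probe sets of each gene averaged and −0.77 without the filter (8 genes). With a stricter filter of 10000 probe sets it was −0.95 (2 genes). The median of the pyrimidine genes was lower in each of these settings, at −1.22, −1.19 and −1.19. SLC29A2, an equilibrative nucleoside transporter of the plasma membrane, had signals of 126.9, 89.7, 60.3 and 35.8 at 0, 6, 12 and 18 h and a log2 ratio of −1.83 at 18 h. SLC25A33, a carrier of pyrimidine nucleotides in the mitochondrial inner membrane, had 634.7, 489, 287.6 and 196.3, a log2 ratio of −1.69. SLC29A1, the other main equilibrative transporter, had −1.48, but −0.80 on its second kept probe set. SLC29A3, a transporter of lysosomes, had 0.28, and SLC25A36, a second mitochondrial carrier of pyrimidine nucleotides, had −0.22.

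Other genes of salvage and phosphorylation had a median of −0.61 at 18 h over 8 measured of 11, near the median of all genes. DCTPP1, which hydrolyses dCTP and related triphosphates, had signals of 1941, 1733, 1169 and 672.7 and a log2 ratio of −1.53 at 18 h. NME6, a mitochondrial relative of NME1, had 113.1, 61.1, 46.4 and 48.2, a log2 ratio of −1.23, and like DHODH it was already at −0.89 at 6 h. These 2 genes were the only ones of the 8 measured below −1 at 18 h, beside 15.8% of all genes. UCK1 and UCKL1, the relatives of UCK2, had −0.71 and −0.58, with 0.19 on a second probe set of UCKL1.

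Among genes that break pyrimidine nucleotides down, 1 of 7 measured (of 11) was below −1 at 18 h, beside 15.8% of all genes. The median of the list by brightest probe sets was −0.83. NT5C had −0.83, with −1.25 on a second kept probe set. UPP1, which splits uridine into uracil and ribose phosphate, had signals of 260.1, 217.7, 196.5 and 96 at 0, 6, 12 and 18 h. The 18 h array stood apart from the others, with a log2 ratio of −1.44 after −0.41 at 12 h. CDA, which deaminates cytidine to uridine, had the highest ratio of the list at 18 h, with 0.46 after 0.40 at 6 h and 0.39 at 12 h.

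By their brightest probe sets, genes that use UTP or CTP had a median of −0.46 at 18 h, beside −0.47 for all genes. None of the 9 measured of 10 had a ratio below −1, beside 15.8% of all genes, or above 1. PCYT2, which makes CDP-ethanolamine for phospholipids, had the lowest of these ratios, −0.995, with signals of 192, 187.3, 148.8 and 96.3. PCYT1A, which makes CDP-choline, had −0.96 on its brightest probe set but −1.10 and −1.65 on its other kept ones. Second readings in this list also went the other way. CDS1 had −0.83 on its brightest probe set and −0.24 and −0.28 on others, and CMAS had −0.46 and 0.22. CDS2 had −0.46, with 0.70 and −0.64 on its other kept ones. The median of this list was 0.05 after division by the trimmed mean.

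De novo purine synthesis, the parallel route to A and G nucleotides, gave values much like those of the pyrimidine genes. Of 9 measured genes of 11, 7 were below −1 at 18 h, beside 15.8% of all genes, and none was above 1. Their median was −1.12 beside −1.19, and it became −0.67 after median centring, −0.60 with quantile normalization and −0.60 with the trimmed mean. By brightest probe sets, PFAS had −1.64, PPAT −1.44, GART −1.36 and GMPS −1.23. Other kept probe sets of these genes spread more widely. Those of GART ran from −1.81 to −0.14, with 5 of 6 above −1, and those of GMPS had −1.10 and −0.33. With the probe sets of each gene averaged, the purine median was −0.99. All 9 were below the median of all genes at 6, 12 and 18 h. Whether the pyrimidine genes differ from the purine genes was not tested, since there is 1 array per time.

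**Figure D5:**
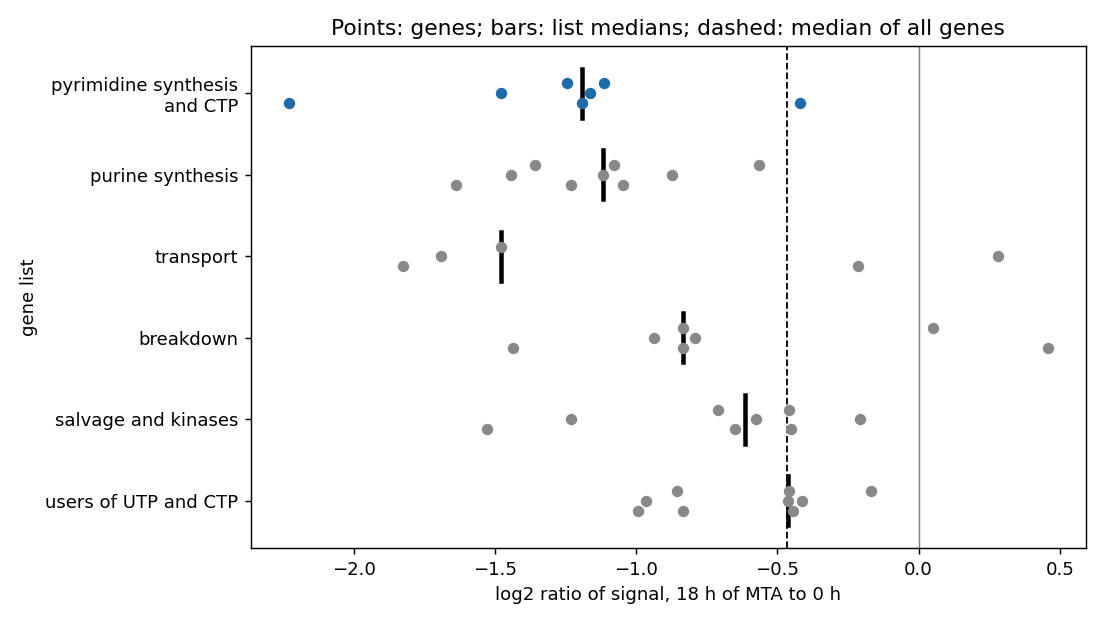
log2 ratio of the signal at 18 h of MTA to 0 h (horizontal axis) for the measured genes of 6 lists, with a point for each gene (spread vertically for sight alone), thick bars for list medians and a dashed line for all genes (median −0.47). The bars of transport (−1.48), pyrimidine synthesis (−1.19), purine synthesis (−1.12), breakdown (−0.83) and salvage and kinases (−0.61) lie left of the dashed line. The bar of the users of UTP and CTP (−0.46) lies on it, and the transport genes spread from −1.83 to 0.28.

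The genes whose ratios at 6, 12 and 18 h were most like those of CTPS1 were sought by the Euclidean distance over the 3 log2 ratios, across all genes. The nearest were PCOTH (distance 0.089), SRM (0.108), MMP7 (0.141), MANEAL (0.175) and PSMB10 (0.181). PCOTH was dim, with signals of 74.4, 54.4, 27.8 and 16.6 at 0, 6, 12 and 18 h. The last 2 lie below 34, the lowest mean kept. SRM, spermidine synthase, had signals of 531.9, 394.4, 214.2 and 120.7 at 0, 6, 12 and 18 h, and its log2 ratio at 18 h was −2.14. MMP7, a secreted protease known as a Wnt target, had 594.7, 432.3, 228.7 and 139.2, a log2 ratio of −2.10. Of the other pyrimidine genes UMPS was the nearest to CTPS1, at rank 330 (distance 0.879), and CTPS2 was the farthest, at rank 4687 (2.06).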

How the data were processed

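Gene expression was measured on 4 Affymetrix Human Genome U133 Plus 2.0 arrays, the work being delegated by the authors to the manufacturer. The values that the authors deposited are linear MAS5 signal intensities from Affymetrix Expression Console (version and scaling target not given in the sources used here). Detection calls were not used here. As many probe sets were kept as the published analysis counts as detected, by the highest mean log2 signal, without 62 controls. Symbols from GEO's platform annotation were updated by Entrez ID (RefSeq, GRCh38.p14). Each gene was read from the brightest kept probe set that bears its symbol alone. No pseudocount was added before log2. Named genes were all members, in each of 5 lists those beyond 1 at 18 h (at most 4 by size, at least 1), and the 5 nearest to CTPS1. UCK1, UCKL1, SLC29A3, SLC25A36, PCYT1A, CDS1, CDS2, CMAS, NT5C and CDA were named after their values were seen. Members, lists and settings were chosen with earlier results of these data known, and GC boxes after the promoters were seen. The calculation was tested on simulated data. Python 3.11.15, NumPy 2.4.6, pandas 2.3.3 and matplotlib 3.10.9 were used.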

Additional observations from a re-analysis of the deposited data

How the results depend on the processing

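The 12 alternatives were 4 filters, 5 scalings of the arrays, a pseudocount of 2.9, averaging the probe sets of each gene and the use of probe sets with several symbols. Without the filter, or with it on the highest or lowest signal, the same probe sets of the 7 genes were read. Their values could not change there. The median log2 ratio of the pyrimidine genes was below 0 at each time under all 12 alternatives. At 18 h it was −0.74 after median centring, −0.64 with quantile normalization, −0.68 with the trimmed mean and −0.94 relative to the poly-A controls. At 12 h it was −0.65, −0.54 and −0.60 under the first 3 of these and −0.66 relative to the hybridization controls. At 6 h it was −0.51 relative to the poly-A controls. The number of the 7 genes below −1 at 18 h was 2 after median centring and relative to the poly-A controls (3.74% and 7.47% of all genes), and 1 with quantile normalization or the trimmed mean (3.84% and 3.08%). The number below −1.5 was 1 throughout, and with a threshold of −1 it was 6. The median of the users of UTP and CTP became 0.051 with the trimmed mean. That of the transport genes became −0.77 without the filter and −0.95 with the stricter filter. The stricter filter left 5 of the genes, without DHODH and CTPS2. Their mean signals were 58.1 and 109.4, against a lowest kept mean of 34, so their ratios rest on dimmer readings than those of the other members. No paired analysis was possible because each group holds a single array.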
